A study of Mus musculus with 15 samples.

Results

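10 genes of matricellular proteins, picked by name, are described here across hearts under pressure overload, with and without neuregulin-1β, and sham-operated hearts: Postn, Tnc, Thbs1, Thbs4, Comp, Ccn2, Ccn4, Ccn5, Sparc and Cthrc1. All 10 were among the 15258 genes of the deposited tables, and 9 were among the 11018 genes with enough reads to test. Comp had too few reads to pass the filter. Matricellular proteins are secreted into the extracellular matrix but serve less as scaffold than as signals. They bind collagens, growth factors and cell surface receptors, and so set how cells hold on to, sense and rebuild the matrix. In the adult heart most are scarce until injury or overload, when activated fibroblasts, and for some members cardiomyocytes and vessel cells, make them as the scar or interstitial fibrosis forms.

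The RNA came from the left ventricle of male C57BL/6NRj mice and was read by BRB-seq, which barcodes each RNA sample and sequences the 3′ ends of its transcripts. The 3 groups of 5 libraries were TAC NRG, TAC saline and sham saline. TAC is transverse aortic constriction, an operation that narrows the aorta, so that the left ventricle pumps against a higher pressure. Both TAC groups had this surgery and carried minipumps, filled with NRG1 (neuregulin-1β, which activates ERBB receptors) in TAC NRG and with saline in TAC saline, while sham saline mice had the sham operation and saline. No library came from sham mice given NRG1, so NRG1 was measured under constriction alone, and the labels used here give neither the age of the mice nor the time after surgery. All libraries were labelled as 1 batch. Nothing in the labels says whether every library was made from its own mouse, and the p-values therefore refer to variation among libraries, which may in part be technical.

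Sequence upstream of the start of transcription was matched in RefSeq for 4 of the 10 members, Postn, Tnc, Thbs4 and Sparc. The 250 bases before each start are shown for these 4 because they were the members matched. Tnc and Postn had the largest fitted fold changes of the tested members in TAC saline against sham saline. Thbs4 was the member that passed the test between the TAC groups. Sparc was the one member with a lower fitted level in TAC NRG than in TAC saline. For Postn and Tnc, which have 2 listed starts each, the window nearer to the start of the principal transcript is shown. Coordinates are on GRCm38.p6, each sequence runs 5′ to 3′ on the strand of its gene, and capitals mark motif matches.
Thbs4, chr13:92794819-92795068, minus strand: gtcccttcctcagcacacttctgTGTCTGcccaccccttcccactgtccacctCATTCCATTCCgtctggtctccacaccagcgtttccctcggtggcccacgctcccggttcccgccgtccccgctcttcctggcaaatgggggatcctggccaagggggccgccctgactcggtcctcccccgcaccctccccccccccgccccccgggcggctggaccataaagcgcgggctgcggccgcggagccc
Sparc, chr11:55420081-55420330, minus strand: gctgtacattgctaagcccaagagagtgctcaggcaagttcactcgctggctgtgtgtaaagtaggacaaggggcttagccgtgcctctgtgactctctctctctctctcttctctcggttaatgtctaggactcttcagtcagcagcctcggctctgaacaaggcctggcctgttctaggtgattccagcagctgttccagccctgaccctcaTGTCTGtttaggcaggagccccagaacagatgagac
Postn, chr3:54360857-54361106, plus strand: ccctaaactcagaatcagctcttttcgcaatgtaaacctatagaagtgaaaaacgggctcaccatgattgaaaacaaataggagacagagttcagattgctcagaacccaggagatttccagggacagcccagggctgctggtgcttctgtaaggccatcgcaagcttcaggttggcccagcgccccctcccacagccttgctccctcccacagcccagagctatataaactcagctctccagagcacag
Tnc, chr4:64047016-64047265, minus strand: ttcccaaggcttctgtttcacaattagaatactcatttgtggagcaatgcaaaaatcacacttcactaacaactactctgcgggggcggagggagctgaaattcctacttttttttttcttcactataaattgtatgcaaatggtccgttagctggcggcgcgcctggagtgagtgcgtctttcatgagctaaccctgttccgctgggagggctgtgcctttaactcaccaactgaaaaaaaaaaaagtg
4 motifs of factors that act downstream of TGF-β, mechanical load or serum were searched on both strands: the TEAD motif GGAATG, the AP-1 motif TGANTCA, the SMAD motif CAGACA, and the CArG box of serum response factor. The Thbs4 window held 2 TEAD matches, at -197 to -192 and -192 to -187 from the start, which share 1 base, and 1 SMAD match at -227 to -222. The Sparc window held 1 SMAD match at -36 to -31. No match lay in the Postn and Tnc windows, which says only that these letters were not in these bases. Of 32817 mouse promoter windows of this length, 12.6% held the TEAD motif, 6.75% the AP-1 motif, 17.1% the SMAD motif and 1.47% the CArG box. These matches are a description of the letters and were not tested as binding sites.

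Libraries held 2.02 to 5.62 M reads, and TAC NRG 4 and TAC NRG 5 were the shallowest, at 2.02 and 2.13 M reads. Mitochondrially encoded genes took 23.7% to 29.0% of reads in TAC NRG, 26.05% to 29.6% in TAC saline and 30.5% to 31.8% in sham saline. All 8 listed cardiomyocyte markers were read in every library. Their sum ran from 40301 to 51829 CPM in TAC NRG, from 38838 to 52098 CPM in TAC saline and from 51889.6 to 57136 CPM in sham saline. For the members themselves, 1 library of each TAC group stood apart. TAC NRG 3 was the highest of its group for 7 of the 10 members, where it was the highest for 23.7% of all tested genes. TAC saline 3 was the lowest of its group for 8 of the 10, where it was the lowest for 24.7% of all tested genes. Differences between the TAC groups are given with all libraries and, for most members, without TAC NRG 3 or without both of these libraries. Of the members, only Thbs4 is also given without TAC saline 3 alone. Both libraries were singled out by the members' own values. Where TAC NRG 3 is the highest or TAC saline 3 the lowest of its group, leaving it out lowers TAC NRG relative to TAC saline by construction. Such values show how far an estimate rests on these libraries and do not test it. Levels below are in CPM (counts per M reads) on the authors' scaling, in which 0.5 of a read was added to each count, given for replicates 1 to 5 in order and as mean ± SD (n = 5). Values written as x ± y beside an adjusted p are log2 fold changes with standard errors, from limma with Benjamini-Hochberg adjustment over all 11018 genes. A gene rose or fell where its adjusted p was under 0.05.

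Every tested member was higher after constriction, whereas 1 of them differed past the threshold between constricted hearts with and without NRG1. In TAC saline against sham saline, 9 of 9 tested members rose, from 1.45-fold for Ccn5 to 10.2-fold for Tnc. Of all tested genes, 10.7% passed the threshold in that comparison, 6.47% as higher and 4.24% as lower genes. In TAC NRG against sham saline, 9 of 9 rose again, where 16.1% of genes passed, 8.74% as higher and 7.39% as lower. Tnc, Ccn4 and Cthrc1 passed the filter of 2.95 reads per M through TAC libraries alone. Their highest sham saline levels were 1.45, 2.29 and 1.65 CPM. For these members the filter itself favoured a rise over sham saline, and Comp, low in every group, was left out by it. In TAC NRG against TAC saline, 1 of 9, Thbs4, rose and none fell, where 1.3% of genes passed, 0.672% as higher and 0.626% as lower. At an unadjusted p under 0.05, 2 members, Thbs4 and Tnc, and 1691 genes passed between the TAC groups. The median log2 fold change over the tested members was 0.45 in TAC NRG against TAC saline, 1.79 in TAC saline against sham saline and 2.25 in TAC NRG against sham saline, against medians over all genes of -0.01, -0.01 and -0.01. The comparisons share libraries, so their values stand side by side and are not independent of each other. The members were chosen with earlier results of these data known, so their counts beside shares of all genes are no independent test. Of the cardiomyocyte markers, 5 of 8 fell and 1 rose in TAC NRG against sham saline, and 4 of 8 fell and 1 rose in TAC saline against sham saline. Their part in the members' rise was not tested. In these bulk samples more cells of a type and more RNA per cell cannot be told apart.

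**Figure D1:**
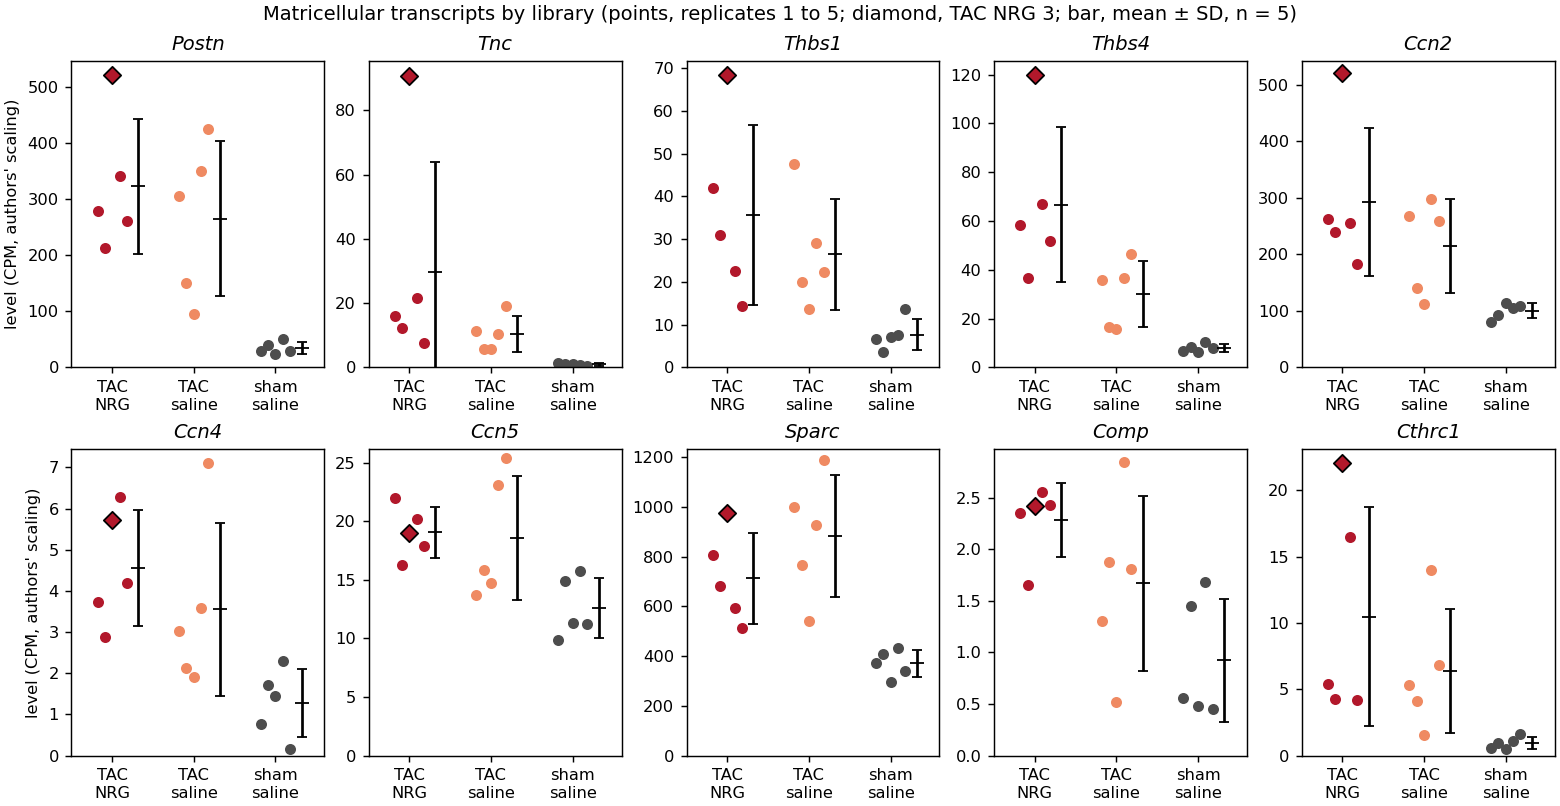
Level of each member (CPM on the authors' scaling) in each library of TAC NRG, TAC saline and sham saline. Points are replicates 1 to 5 from left to right, the diamond is TAC NRG 3, and the bar is the mean ± SD (n = 5); the lower SD bar of Tnc in TAC NRG ends at the axis because the SD of 34.4 exceeds the mean of 29.6. Postn, Tnc, Thbs1, Thbs4 and Sparc lie above every sham saline library in both TAC groups, and the TAC groups overlap for each member.

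Postn encodes periostin, a protein of activated fibroblasts that binds integrins and helps collagen cross-linking. Postn was read at 278, 213, 521, 341 and 260.1 CPM in TAC NRG, at 306, 150.4, 94.7, 350.5 and 425 CPM in TAC saline and at 29.5, 40.2, 24.7, 50.5 and 30.1 CPM in sham saline. Every TAC library lay above every sham saline library, the lowest TAC saline value being that of library 3, and the TAC groups overlapped over most of their range. Postn rose 6.80-fold in TAC saline against sham saline (2.77 ± 0.29, adjusted p = 2.3e-06). In TAC NRG it averaged 323 ± 120.1 CPM, against 265 ± 138 CPM in TAC saline, a log2 fold change of 0.41 ± 0.29 with a 95% interval of -0.19 to 1.02 (adjusted p = 0.529). That estimate was 0.22 without TAC NRG 3 and -0.10 without both TAC saline 3 and TAC NRG 3, and over 27 alternative settings it ran from -0.10 to 0.64. Against sham saline Postn rose 9.07-fold in TAC NRG (adjusted p = 6.68e-08).

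Tnc encodes tenascin-C, a large glycoprotein that loosens cell adhesion and is made at the edge of injured tissue. Tnc levels were 15.9, 12.3, 90.5, 21.6 and 7.73 CPM in TAC NRG, against 11.4, 5.62, 5.71, 10.5 and 19.1 CPM in TAC saline. Sham saline libraries held 6, 4, 3, 2 and 1 reads, or 0.449 to 1.45 CPM, 16 reads in all. TAC NRG 3 held over 4 times the Tnc of any other library of its group, and all TAC libraries lay above all sham saline libraries. Tnc rose 10.2-fold in TAC saline against sham saline (3.36 ± 0.46, adjusted p = 4.89e-05) and 21.4-fold in TAC NRG against sham saline (4.42 ± 0.46, adjusted p = 4.94e-07). With so few sham reads these folds depend on the 0.5 of a read that the authors' scale adds. Between the TAC groups the log2 fold change was 1.06 ± 0.46 in TAC NRG against TAC saline (adjusted p = 0.274), 0.51 without TAC NRG 3 (adjusted p = 0.532) and 0.33 without both TAC saline 3 and TAC NRG 3.

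Thbs4 encodes thrombospondin-4, a pentameric glycoprotein that in mouse heart also acts inside cells, in the stress response of the endoplasmic reticulum. Levels of Thbs4 were 58.2, 36.6, 119.8, 67.1 and 51.9 CPM in TAC NRG, 36.0, 16.4, 15.8, 36.7 and 46.3 CPM in TAC saline and 6.56, 8.57, 6.22, 10.5 and 7.93 CPM in sham saline. 4 of the 5 TAC NRG libraries lay above every TAC saline library, TAC NRG 2 lay within the TAC saline range, and every TAC library lay above every sham saline library. Thbs4 averaged 66.7 ± 31.7 CPM in TAC NRG and 30.2 ± 13.6 CPM in TAC saline, and rose 2.24-fold (1.16 ± 0.27, 95% interval of the fold 1.52 to 3.31, limma adjusted p = 0.0310). In TAC saline against sham saline it rose 3.52-fold (1.82 ± 0.27, adjusted p = 0.000111), and in TAC NRG against sham saline 7.89-fold (2.98 ± 0.27, adjusted p = 6.68e-08). The call between the TAC groups was lost without TAC saline 2 (adjusted p = 0.0838), TAC saline 3 (adjusted p = 0.0765), TAC NRG 3 (adjusted p = 0.0571) or TAC NRG 4 (adjusted p = 0.0844). With all libraries kept it was lost when scaled by total reads alone (adjusted p = 0.0574), with only the 2 groups fitted (adjusted p = 0.0783), with a robust spread (adjusted p = 0.146) and with library quality weights (adjusted p = 0.0723). Without TAC saline 3 and TAC NRG 3 together the log2 fold change was 0.72 (adjusted p = 0.103), and over all 27 alternatives it ran from 0.72 to 1.35, positive in each.

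Thbs1 encodes thrombospondin-1, a trimeric relative that binds CD36 and CD47 and activates latent TGF-β. Its levels were 41.9, 30.9, 68.4, 22.5 and 14.4 CPM in TAC NRG, 47.6, 19.9, 13.7, 29.1 and 22.2 CPM in TAC saline and 6.56, 3.56, 7.18, 7.48 and 13.6 CPM in sham saline. TAC NRG 3 and TAC saline 1 were the highest of their groups, and the lowest TAC saline library, at 13.7 CPM, lay just above the highest sham saline library, at 13.6 CPM. Thbs1 rose 3.45-fold in TAC saline against sham saline (1.79 ± 0.35, adjusted p = 0.00147) and 4.41-fold in TAC NRG against sham saline (adjusted p = 0.000119). Between TAC NRG and TAC saline the log2 fold change was 0.36 ± 0.35 with a 95% interval of -0.36 to 1.07 (adjusted p = 0.673). It was 0.07 without TAC NRG 3, and -0.14 without both TAC saline 3 and TAC NRG 3. Comp encodes the cartilage oligomeric matrix protein, the fifth thrombospondin, known from cartilage and tendon. Its reads were 8, 9, 9, 5 and 5 in TAC NRG, 4, 7, 1, 11 and 7 in TAC saline and 2, 5, 1, 5 and 1 in sham saline. The sums were 36, 30 and 14 reads, and all groups overlapped. With every gene of the tables tested, the adjusted p of Comp was 0.612 in TAC NRG against TAC saline, 0.303 in TAC saline against sham saline and 0.0371 in TAC NRG against sham saline (log2 fold changes of 0.63, 0.90 and 1.53).

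The CCN genes encode small secreted proteins of shared modular build. Ccn2 encodes connective tissue growth factor, a target of TGF-β and of YAP. Its levels were 263, 239.7, 519.7, 256 and 183 CPM in TAC NRG, 269, 139.6, 113, 298 and 258 CPM in TAC saline and 81.0, 92.7, 115, 106 and 109 CPM in sham saline. TAC NRG lay wholly above sham saline, whereas TAC saline 3, at 113 CPM, lay within the range of the sham saline libraries. Ccn2 rose 2.01-fold in TAC saline against sham saline (1.01 ± 0.23, adjusted p = 0.00567) and 2.74-fold in TAC NRG against sham saline (adjusted p = 9.51e-05). Between TAC NRG and TAC saline its log2 fold change was 0.45 ± 0.23 (adjusted p = 0.357), 0.22 without TAC NRG 3 (adjusted p = 0.636) and 0.01 without both TAC saline 3 and TAC NRG 3.

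Ccn5 encodes the CCN protein that lacks the C-terminal cysteine knot of the others. Levels of Ccn5 were 22.0, 16.3, 19.0, 20.2 and 17.9 CPM in TAC NRG, 13.7, 15.9, 14.7, 23.1 and 25.4 CPM in TAC saline and 9.90, 14.9, 11.3, 15.7 and 11.2 CPM in sham saline. All 5 TAC NRG libraries lay above sham saline, but TAC saline 1 and TAC saline 3 lay within its range. Ccn5 had the smallest rise of the tested members, 1.45-fold in TAC saline against sham saline (0.54 ± 0.17, adjusted p = 0.0462) and 1.53-fold in TAC NRG against sham saline (adjusted p = 0.0168). Between TAC NRG and TAC saline it was 0.08 ± 0.17 with a 95% interval of -0.28 to 0.43 (adjusted p = 0.871). Its TAC saline call did not hold when sham saline 1, 3 or 5, TAC saline 4 or 5, or TAC NRG 1 or 2 was left out, with the highest adjusted p, 0.174, without TAC saline 5. That call was lost too with no filter (adjusted p = 0.0557) or with only the 2 groups fitted (adjusted p = 0.0518). With libraries thinned to the fewest reads its adjusted p was 0.0798. The TAC NRG call against sham saline did not hold when sham saline 1 was left out (adjusted p = 0.0530).

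Ccn4 encodes WISP1, a target of Wnt signalling, and was near the limit of detection. Its reads were 13, 16, 22, 13 and 9 in TAC NRG, 10, 8, 5, 14 and 29 in TAC saline and 3, 6, 4, 7 and 0 in sham saline. In CPM it averaged 4.56 ± 1.41 in TAC NRG, 3.55 ± 2.10 in TAC saline and 1.27 ± 0.83 in sham saline. TAC NRG lay above sham saline in every library, and TAC saline overlapped with both. Ccn4 rose in TAC saline against sham saline (1.78 ± 0.55, adjusted p = 0.0369) and in TAC NRG against sham saline (2.25 ± 0.55, adjusted p = 0.00572), and was 0.47 ± 0.55 in TAC NRG against TAC saline (adjusted p = 0.728), or 0.20 without both TAC saline 3 and TAC NRG 3. Its first call did not hold when sham saline 1 or 5 or TAC saline 1, 4 or 5 was left out, and the log2 fold change was 1.12 without sham saline 5 (adjusted p = 0.0905), the library with no Ccn4 read. That call was lost too with only the 2 groups fitted (adjusted p = 0.0522).

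Sparc encodes a collagen-binding protein, also called osteonectin, that takes part in procollagen processing and fibril assembly. Sparc was read at 807, 683, 976, 592 and 511 CPM in TAC NRG, at 998, 767, 539, 927 and 1188 CPM in TAC saline and at 372, 409, 297, 433 and 341 CPM in sham saline. Every TAC library lay above every sham saline library, and the highest and lowest values of TAC NRG each lay below their counterparts in TAC saline. Sparc rose 2.33-fold in TAC saline against sham saline (1.22 ± 0.17, adjusted p = 4.25e-05) and 1.89-fold in TAC NRG against sham saline (0.92 ± 0.17, adjusted p = 0.000367). Between TAC NRG, at 714 ± 183 CPM, and TAC saline, at 884 ± 245 CPM, the log2 fold change was -0.30 ± 0.17 with a 95% interval of -0.64 to 0.05 (adjusted p = 0.405). Without TAC NRG 3 it was -0.42 (adjusted p = 0.172), and without both TAC saline 3 and TAC NRG 3, a choice made after the data were seen, it was -0.58 (adjusted p = 0.0211). For Sparc these were the lowest TAC saline and the highest TAC NRG library, so leaving them out lowers the value by construction.

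Cthrc1 encodes a secreted protein with a collagen-like repeat that marks a group of activated cardiac fibroblasts after injury. It was read at 5.39, 4.26, 22.0, 16.5 and 4.20 CPM in TAC NRG, at 5.35, 4.12, 1.56, 13.97 and 6.85 CPM in TAC saline and at 0.556, 0.923, 0.478, 1.07 and 1.65 CPM in sham saline. TAC NRG 3, TAC NRG 4 and TAC saline 4 lay well above the other libraries, and TAC saline 3 lay below the highest sham saline library. Cthrc1 rose 5.98-fold in TAC saline against sham saline (2.58 ± 0.51, adjusted p = 0.00191) and 9.59-fold in TAC NRG against sham saline (3.26 ± 0.51, adjusted p = 9.51e-05). Sham saline libraries held 1 to 5 Cthrc1 reads each, 14 in all, so these folds too depend on the added 0.5 of a read. Between TAC NRG and TAC saline the log2 fold change was 0.68 ± 0.51 with a 95% interval of -0.38 to 1.74 (adjusted p = 0.564), which holds both no difference and a more than 2-fold increase. It was 0.32 without TAC NRG 3, and -0.10 without both TAC saline 3 and TAC NRG 3.

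**Figure D2:**
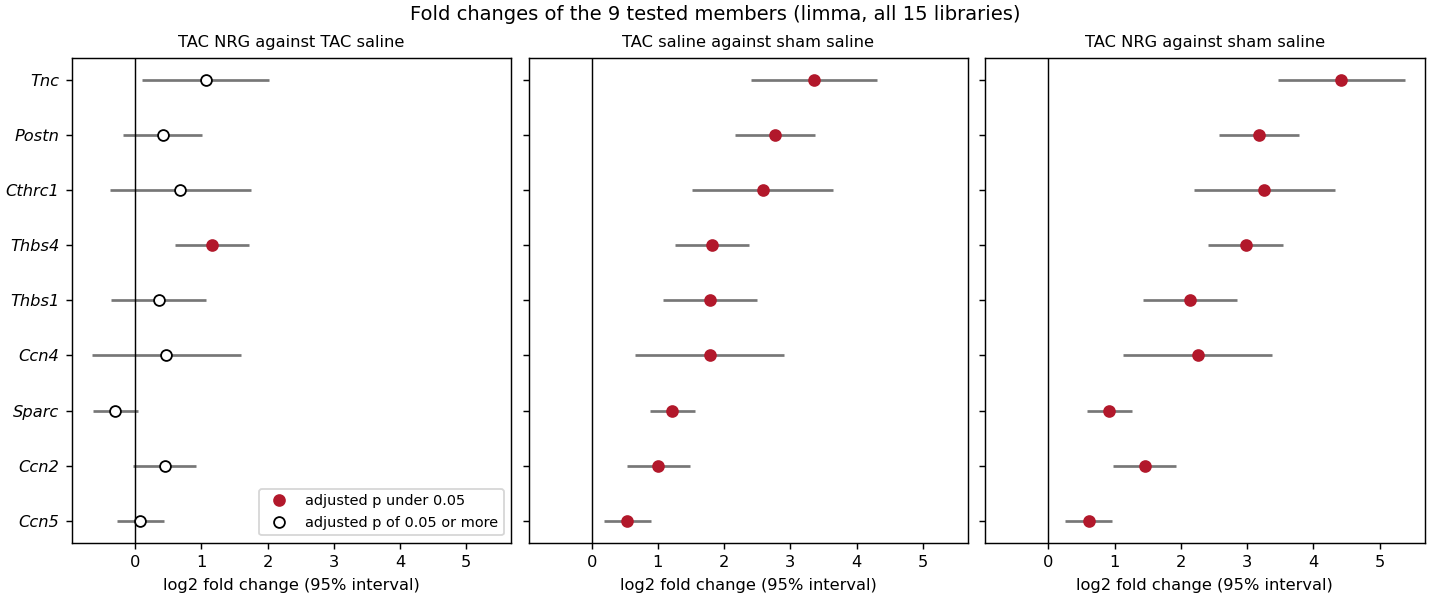
Fitted log2 fold changes with 95% intervals of the 9 tested members in TAC NRG against TAC saline (left), TAC saline against sham saline (middle) and TAC NRG against sham saline (right), from limma on all 15 libraries. Filled points have an adjusted p under 0.05: 1 on the left, Thbs4, and 9 in each of the other panels.

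How far the groups were apart library by library followed the same order. Against sham saline, 9 of the 10 members, all but Comp, were higher in TAC NRG with no overlap, where 6.23% of tested genes were and 5.45% were lower. In TAC saline against sham saline 5 of 10 were, namely Postn, Tnc, Thbs1, Thbs4 and Sparc, where 4.72% of genes were and 3.68% were lower. The other 5 overlapped with sham saline. In TAC NRG against TAC saline 0 of 10 were higher without overlap, where 1.81% of genes were and 1.25% were lower. The 10 members together took 0.112% to 0.264% of reads in TAC NRG, 0.0807% to 0.228% in TAC saline and 0.0468% to 0.0633% in sham saline. TAC NRG 3 had the highest share of its group, and TAC saline 3 the lowest of its own.

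**Figure D3:**
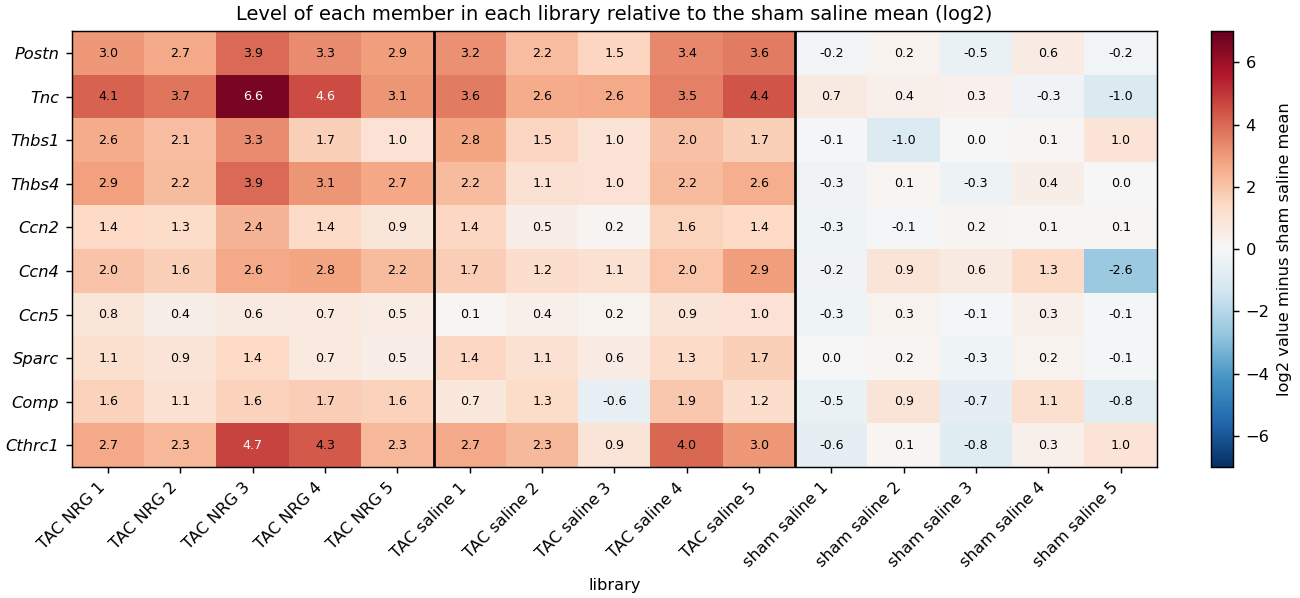
Log2 value of each member in each library minus the mean of the 5 sham saline libraries, for TAC NRG (left), TAC saline (middle) and sham saline (right). The column of TAC NRG 3 is the darkest of its group for 7 of 10 members and that of TAC saline 3 the palest of its group for 8 of 10.

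Members differed in which library was extreme. TAC NRG 2 was the lowest of its group for Postn, Thbs4, Ccn4, Ccn5 and Comp, and TAC NRG 5 for Tnc, Thbs1, Ccn2, Sparc and Cthrc1. In TAC saline, library 5 was the highest for 6 of 10, Postn, Tnc, Thbs4, Ccn4, Ccn5 and Sparc. After each library's group mean was subtracted from the log2 values, the 36 pairs of tested members had a median Pearson r of 0.58 over the 15 libraries, and 34 of them were above 0. The median was 0.55 without TAC NRG 3. Postn and Thbs4 were the most alike pair, with r = 0.95 (0.96 without TAC NRG 3), and Thbs1 and Ccn4 the least, with r = -0.26. These values describe the libraries, whose values share depth and scaling, and carry no test.

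Likeness to other genes was measured in the same way over 9279 genes with a mean of at least 5 CPM. Postn was most like Igfbp7 (r = 0.97), Fn1 (r = 0.96) and Col1a2 (r = 0.95). Thbs4 was most like Fn1, Col5a2 and Col1a2 (r = 0.96 each), and Cthrc1 most like Col1a1, Loxl1 and Col1a2 (r = 0.90 each). Apart from Igfbp7, which encodes an insulin-like growth factor binding protein, these neighbours encode fibronectin, fibrillar collagens and a collagen cross-linking enzyme. The neighbours of Sparc were Flna (r = 0.94), Pdlim1 (r = 0.93) and Sav1 (r = 0.92). Those of Thbs1 were Tmem184b (r = 0.89), Bhlhe40 (r = 0.88) and Cald1 (r = 0.87). For Tnc they were Marcksl1 (r = 0.92), Spcs3 (r = 0.90) and Efhd2 (r = 0.88), of which Efhd2 dropped to 0.74 without TAC NRG 3. Ccn2 was most like Gnao1 (r = 0.91), Ccn4 most like Dync2li1 (r = 0.88) and Ccn5 most like Pir (r = 0.86). With 15 libraries and 9279 candidates, the closest genes have high r by selection.

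The balance between members within a library does not depend on how libraries are scaled, and was compared for the 36 pairs of tested members by exact two-sided permutation, adjusted over the 36 pairs of a comparison. These ratios were chosen after the data were seen. Since they use the same values as the fold changes, they are no independent support for them. No share of passing ratios was counted for other gene pairs, so whether the counts below are unusual was not tested. In TAC saline against sham saline 14 of 36 ratios passed an adjusted p of 0.05. Postn over Ccn2 was 0.20 ± 0.35 in TAC saline and -1.56 ± 0.47 in sham saline on the log2 scale (SD, n = 5 each; exact permutation p = 0.0079, the smallest that 5 against 5 allow, adjusted p = 0.0286). Postn over Sparc was -1.89 ± 0.51 in TAC saline and -3.44 ± 0.22 in sham saline, with the same p-values from the exact permutation test. Tnc likewise moved up against Ccn5, by 2.82 on the log2 scale, and against Ccn2, by 2.35. Postn, Tnc and Cthrc1, grouped after the ratios were seen, thus rose more than Ccn2, Ccn5 and Sparc in each of the 9 pairings. The 3 ratios of Cthrc1 to these genes did not pass when any 1 of sham saline 1 to 4 or TAC saline 1, 2, 4 or 5 was left out (highest exact permutation adjusted p = 0.0952). That of Postn to Ccn5 did not pass without sham saline 3 (exact permutation adjusted p = 0.0571). In sham saline the ratios of Tnc and of Cthrc1 rest on 16 and 14 reads of these genes in all. The filter, which Tnc and Cthrc1 passed through TAC libraries alone, also favoured their rise over sham saline.

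Between the TAC groups 0 of 36 ratios passed the adjusted threshold, and 8 had an unadjusted exact permutation p under 0.05, of which 5 involved Thbs4 and 4 Sparc. Thbs4 over Sparc was -3.50 ± 0.50 in TAC NRG and -4.96 ± 0.37 in TAC saline (SD, n = 5 each; exact permutation p = 0.0079, adjusted p = 0.0816). The 5 TAC NRG ratios ran from -4.22 to -3.03 and the 5 TAC saline ratios from -5.55 to -4.66, with no overlap. Ccn2 over Sparc was -1.35 ± 0.29 in TAC NRG and -2.09 ± 0.32 in TAC saline, also 5 against 5 (exact permutation p = 0.0079, adjusted p = 0.0816). Postn over Thbs4 was 2.32 ± 0.15 in TAC NRG and 3.07 ± 0.27 in TAC saline (n = 5 each; exact permutation p = 0.0079, adjusted p = 0.0816). It was 2.11 ± 0.15 in sham saline, so the balance of these genes in TAC NRG was nearer to sham saline than that in TAC saline was. The fitted levels of both genes were further from sham saline in TAC NRG than in TAC saline. The folds were 9.07 against 6.80 for Postn and 7.89 against 3.52 for Thbs4. Of these genes, only Thbs4 passed the limma threshold between the TAC groups. In TAC NRG against sham saline 19 of 36 ratios passed, among them Thbs4 over Sparc (a difference of 2.06, exact permutation adjusted p = 0.0190), which in TAC saline against sham saline was 0.60 (exact permutation adjusted p = 0.0536).

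**Figure D4:**
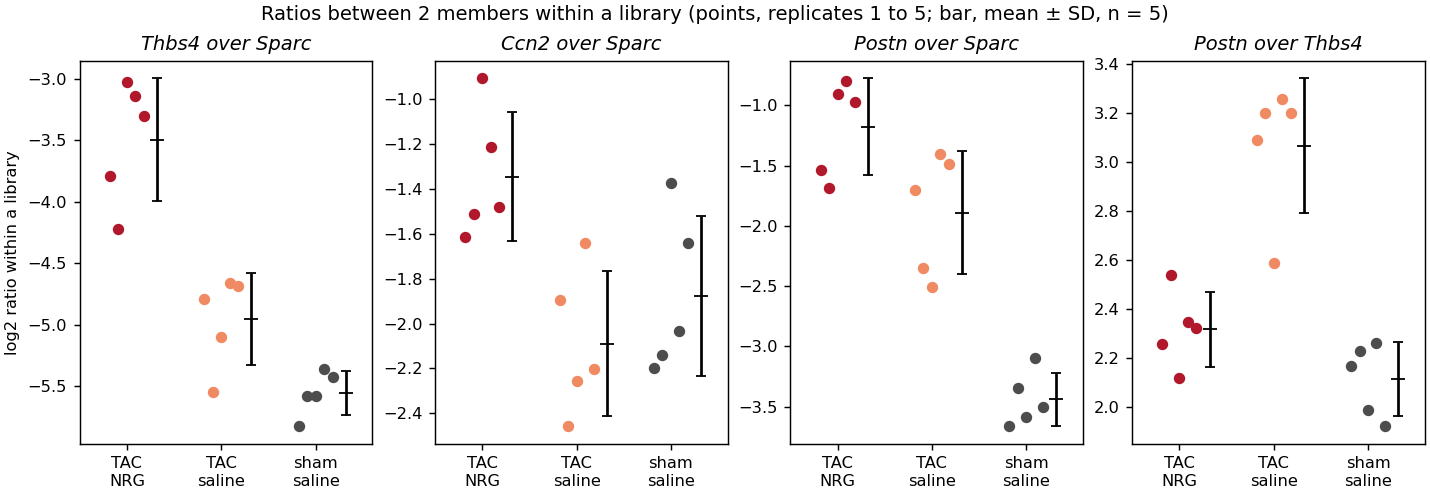
Log2 ratio of 2 members within each library for Thbs4 over Sparc, Ccn2 over Sparc, Postn over Sparc and Postn over Thbs4, in TAC NRG, TAC saline and sham saline. Points are replicates 1 to 5 and the bar is the mean ± SD (n = 5). The 5 Thbs4 over Sparc ratios of TAC NRG, from -4.22 to -3.03, all lie above those of TAC saline, from -5.55 to -4.66.

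The genes around the set were counted in 4 lists. For these counts and those of the cell type markers below, the shares of all tested genes are the background. The lists too were chosen with earlier results of these data known, so this background gives no independent test of them. In TAC saline against sham saline 6.47% of all tested genes rose and 4.24% fell. In TAC NRG against sham saline 8.74% rose and 7.39% fell, and in TAC NRG against TAC saline 0.672% rose and 0.626% fell. The listed matrix partners, among them collagens, fibronectin and Lox, rose almost as a whole. In TAC saline against sham saline 17 of 18 rose, all but Dcn, with a median log2 fold change of 1.34. All 18 rose in TAC NRG against sham saline, with a median of 1.46, and none passed in TAC NRG against TAC saline, where the median was 0.14. Col1a1, a chain of type I collagen, was at 198 ± 79.3 CPM in TAC NRG, 162 ± 54.2 CPM in TAC saline and 47.7 ± 7.16 CPM in sham saline, and rose by 1.70 ± 0.21 in TAC saline against sham saline. Lox, the lysyl oxidase that cross-links collagen, rose by 1.91 ± 0.34 in the same comparison, and Col12a1, a fibril-associated collagen, by 2.71 ± 0.56.

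Other matricellular genes moved less evenly. Of 24 listed, 19 were in the tables and 16 were tested, of which 6 rose and none fell in TAC saline against sham saline (Fstl1, Lgals3, Aspn, Fbln2, Smoc2 and Mgp), with a median of 0.43. Lgals3 did not pass without sham saline 3 or TAC saline 4 or 5 (highest adjusted p = 0.0687). The largest rise of these was that of Fstl1, a follistatin-like secreted protein, at 251 ± 67.6 CPM in TAC NRG, 251 ± 90.3 CPM in TAC saline and 86.6 ± 9.63 CPM in sham saline (1.46 ± 0.18 in TAC saline against sham saline). In TAC NRG against sham saline 6 rose (Fstl1, Thbs3, Aspn, Mgp, Fbln2 and Tgfbi) and Fbln1 fell, with a median of 0.26. The call of Thbs3 did not hold without both TAC NRG 4 and TAC NRG 5 (adjusted p = 0.0697). Between the TAC groups 1 of 16 rose, Mgp, the matrix Gla protein that inhibits calcification, and the median was -0.18. Mgp was at 309 ± 68.7 CPM in TAC NRG, 212 ± 26.2 CPM in TAC saline and 161 ± 12.5 CPM in sham saline, with log2 fold changes of 0.52 ± 0.12 in TAC NRG against TAC saline (adjusted p = 0.0302) and 0.40 ± 0.12 in TAC saline against sham saline (adjusted p = 0.0360). The call between the TAC groups was lost in 13 of 27 alternatives, among them those without TAC saline 1, 2, 3 or 5 or TAC NRG 3, 4 or 5, and that against sham saline in 10 of 27, among them those without any 1 sham saline library or TAC saline 2, 4 or 5.

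Receptors were counted over 24 listed genes, 19 of them tested. In TAC saline against sham saline 5 rose, Itga9, Itga5, Stab1, Itgb1 and Sdc2, and Cd36, a receptor of thrombospondin-1, and Itgb6 fell. Itga9, an integrin chain that binds tenascin-C, was at 27.7 ± 3.49 CPM in TAC NRG, 30.9 ± 2.34 CPM in TAC saline and 18.4 ± 1.07 CPM in sham saline, and rose by 0.75 ± 0.11 in TAC saline against sham saline. The call of Itga5 in that comparison did not hold without sham saline 3 or TAC saline 1, 4 or 5 (highest adjusted p = 0.0900). It was lost too with a robust spread (adjusted p = 0.0535) and with libraries thinned to the fewest reads (adjusted p = 0.0507). In TAC NRG against sham saline 7 rose, Itga5, Itgb5, Itga9, Itgav, Sdc2, Lrp1 and Itgb1, and Itgb6 fell. The call of Itga9 in that comparison was lost with libraries thinned to the fewest reads (adjusted p = 0.0725). Between the TAC groups 1 of 19 passed: Stab1, the stabilin-1 scavenger receptor that takes up SPARC, fell to 23.0 ± 4.95 CPM in TAC NRG, against 34.4 ± 4.03 CPM in TAC saline (-0.60 ± 0.13, adjusted p = 0.0230), and was at 24.1 ± 2.22 CPM in sham saline. That call was lost in 8 of 27 alternatives, among them those without TAC saline 1, 4 or 5 or TAC NRG 4 or 5 (highest adjusted p = 0.197). Stab1 is also a gene of macrophages and sinusoidal endothelium. The summed macrophage markers ran from 182 to 324 CPM in TAC NRG, from 221 to 352 CPM in TAC saline and from 178 to 250.2 CPM in sham saline, and overlapped between the TAC groups. The summed endothelial markers ran from 509.6 to 605 CPM in TAC NRG, from 606 to 702 CPM in TAC saline and from 571 to 636 CPM in sham saline. They were lower in every TAC NRG library than in any TAC saline library, and 1 of 8, Cdh5, fell between these groups. The part of either cell type in the level of Stab1 was not tested.

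Upstream regulators of the TGF-β, YAP and TEAD, and serum response factor pathways were counted over 21 genes, 20 of them tested. In TAC saline against sham saline 6 rose (Tgfb2, Tgfb3, Mrtfa, Scx, Tgfbr2 and Tgfb1) and none fell, with a median of 0.14. Tgfb2, a ligand of the TGF-β receptors, was at 22.7 ± 8.72 CPM in TAC NRG, 19.7 ± 4.07 CPM in TAC saline and 9.57 ± 1.82 CPM in sham saline, and rose by 1.04 ± 0.22 in TAC saline against sham saline. Against sham saline, 5 of 20 rose in TAC NRG (Tgfb2, Tgfb3, Scx, Tgfbr2 and Tgfb1) and Smad4 fell, and the call of Scx did not hold without sham saline 4 (adjusted p = 0.0504). Between the TAC groups 0 of 20 passed the limma threshold, with a median of -0.04. The call of Mrtfa in TAC saline against sham saline did not hold without sham saline 2, 3 or 5 or TAC saline 1, 2, 4 or 5 (highest adjusted p = 0.117). That of Scx did not hold without sham saline 2, 3 or 4 or TAC saline 1, 3, 4 or 5 (highest adjusted p = 0.113). With all libraries kept, the call of Mrtfa was lost with no filter (adjusted p = 0.0556). The call of Scx was lost with limma voom on the recovered reads (adjusted p = 0.0507).

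Markers of cell types were measured beside the members. The 8 cardiac fibroblast markers, all read in every library, summed to 905 to 1072 CPM in TAC NRG, 776 to 1184 CPM in TAC saline and 1129 to 1272 CPM in sham saline. Of these, Lum, Cd248, Pi16 and Tcf21 rose and Gsn, the most abundant, fell in TAC saline against sham saline. As a percentage of that sum, Postn was 22.8% to 57.6% in TAC NRG, 8.82% to 54.7% in TAC saline and 2.19% to 4.09% in sham saline, and Sparc was 47.7% to 108% in TAC NRG, 50.2% to 153% in TAC saline and 26.3% to 35.0% in sham saline. Relative to this sum too, both TAC groups lay above sham saline for these members. However, Gsn held most of the reads in the sum, 43002 over the 15 libraries, against 5065 for Lum, the next highest. The sum thus mainly followed Gsn, while the median log2 fold change of the 8 markers was 0.37 in TAC saline against sham saline. These percentages therefore do not measure the members per fibroblast. Thbs4 was 3.93% to 13.2% of the sum in TAC NRG, 1.38% to 5.97% in TAC saline and 0.536% to 0.852% in sham saline, so the TAC groups overlapped on this measure as well. In TAC NRG 3 the fibroblast sum, 905 CPM, and the cardiomyocyte sum, 40301 CPM, were the lowest of the group, and the macrophage sum, 324 CPM, was the highest. In TAC saline 3 the cardiomyocyte sum, 52098 CPM, and the mitochondrial share, 29.6%, were the highest of the group.

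Of the other marker lists, dividing cells moved most between TAC saline and sham saline. Their 8 genes summed to 21.2 to 45.8 CPM in TAC NRG, 34.6 to 122 CPM in TAC saline and 6.86 to 16.2 CPM in sham saline, and 8 of 8 rose in TAC saline against sham saline. Red cell markers summed to 1704 to 3489 CPM in TAC NRG, 981 to 1474 CPM in TAC saline and 904 to 2222 CPM in sham saline, and 5 of 5 tested rose in TAC NRG against TAC saline. Thbs1 is also stored in platelets, of which 5 of 8 markers were in the tables. These summed to 19.97 to 24.05 CPM in TAC NRG, 14.9 to 24.7 CPM in TAC saline and 16.5 to 24.4 CPM in sham saline. Thbs4 and Comp are known from tendon and valve, of whose 8 listed markers Scx, Fmod, Acan and Prg4 were in the tables and Tnmd, Chad, Cilp2 and Mkx were not. Those 4 summed to 27.8 to 59.9 CPM in TAC NRG, 16.2 to 32.1 CPM in TAC saline and 14.9 to 20.2 CPM in sham saline, and TAC NRG 3 was the highest. The part of these cell types in the members' levels was not tested.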

How the data were processed

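Tri Reagent was used to extract total RNA from frozen tissue, and 3′-end libraries came from the MERCURIUS BRB-seq service, per the labels' protocols. Reads were placed on GRCm39, per the submitters' processing notes; which aligner and counter were used is not given in the sources used here. Each deposited value is, by the spacing between low values, log2 of (reads + 0.5) times a constant of the library, scaled by the authors. Dividing by that constant gave whole reads (within 0.05) for 98.8% to 99.5% of values per library and for 100% of values under 1000 reads. CPM are the deposited values out of the log, divided by 1000. Libraries of a group differed beyond sampling noise (chi-square per degree of freedom 2.27 to 12.1).

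A gene was tested if 5 or more libraries had 2.95 reads per M, which is 10 reads at median depth, and if all libraries together had 15 reads; 11018 of 15258 were. The plan had assumed a count test; as the files hold log2 values, limma 3.58.1 (R 4.3.3), letting the spread depend on level, was fitted to all 15 libraries, with 2-sided tests. Samples were grouped by their labels. The fit was checked on simulated data. The members and gene lists were chosen with earlier results of these data known. Genes named beyond the members are up to 4 called members of each list per comparison, by size of change at a mean of at least 5 CPM, and the 3 genes most like each member; further names of called list members were given after their values were seen. Alternatives covered scaling, filter, groups in the fit, replicate numbers, spread, depth and left-out libraries. No alternatives are given for Cd36, Itgav, Sdc2, Lrp1, Itgb1, Smoc2, Tgfbi, Fbln1, Tgfb1 and Smad4. Upstream sequences came from RefSeq tables on GRCm38.p6, another build than that of the files, so no position is carried over. Tables were made with pandas 2.3.3 and scipy 1.17.1 under Python 3.11.15 (numpy 2.4.6), and figures with matplotlib 3.10.9. Precision is limited by depth: members under about 10 reads per library rest on counting error as much as on spread.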

Additional observations from a re-analysis of the deposited data

Results flagged for a closer look

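3 of the 30 sets of 5 libraries (10 members in 3 groups) held a value far from the rest of its group, by a gap test on CPM. For normally distributed values, chance alone marks about 1 set in 20 at this test, and CPM need not be so distributed. A high value also stands out more in CPM than on the log2 scale used for the fits. Tnc was at 90.5 CPM in TAC NRG 3, and the other 4 libraries of that group lay between 7.73 and 21.6 CPM. Ccn2 was at 520 CPM in TAC NRG 3, and the other 4 lay between 183 and 263 CPM. Comp was at 1.65 CPM in TAC NRG 2, and the other 4 lay between 2.35 and 2.55 CPM, though its reads there, 9, were as many as in TAC NRG 3, since TAC NRG 2 was the deepest library. Without TAC NRG 3 the log2 fold change in TAC NRG against TAC saline was 0.51 for Tnc and 0.22 for Ccn2, and neither passed the limma threshold with or without it.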

How the results depend on the processing

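Over 27 alternatives no call changed sign, and Postn, Tnc, Thbs1, Thbs4, Sparc and Cthrc1 kept their calls against sham saline in both TAC groups in each. Between TAC NRG and TAC saline the count of members past the threshold was 1. It was 0 when scaled by total reads alone, with only the 2 groups fitted, with a robust spread, with library quality weights and without TAC NRG 4 and 5. The count over all genes was 143, and 77 with only the 2 groups fitted, 93 with quality weights, 39 without TAC NRG 4 and 5, and 304 without TAC saline 3 and TAC NRG 3, an alternative added after the data were seen. Without those 2 libraries the 1 member called was Sparc, as lower, and not Thbs4. Leaving out 1 library gave 0 to 1 members and 58 (without TAC NRG 4) to 229 (without TAC NRG 2) genes in TAC NRG against TAC saline. It gave 7 to 9 members and 635 (without TAC saline 5) to 1495 (without TAC saline 3) genes in TAC saline against sham saline, and 8 to 9 members and 1338 to 1854 genes in TAC NRG against sham saline. With a robust spread Ccn2 lost its call in TAC saline against sham saline (adjusted p = 0.0594). The causes were not tested. When scaled by total reads alone, 84.8% of calls were higher in TAC saline against sham saline, against 60.4%, and 75.2% against 54.2% in TAC NRG against sham saline, while the median of all genes was 0.10 and 0.08. The replicate numbers did not pair the libraries: same-numbered libraries deviated together with r of -0.25 to 0.08, and 7 of 30 matched their own number best. A fit with a replicate block called 1, 9 and 9 members and 111, 1049 and 1645 genes in TAC NRG against TAC saline, TAC saline against sham saline and TAC NRG against sham saline. The planned edgeR and DESeq2 tests were not run, because the deposited values are not counts, and limma voom on the recovered reads, added in their place, called 1, 9 and 9 members in the same order.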
